A study of Homo sapiens with 21 samples.

Results

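Regions of open chromatin that lie at the ends of neighbouring genes were described in microglia-like cells made from the human embryonic stem cell line H9. Peaks of the 21 ATAC-seq libraries were merged wherever they overlapped by 1 bp or more, and a region was taken when it was autosomal and lay within 1000 bp of an end of each of 2 or more protein-coding gene spans. There were 2608 such regions among 160166 autosomal regions, or 1.63%. A gene end was either edge of its span in the RefSeq table of GRCh38.p14, so a pair of ends could be 2 starts, a start and an end, or 2 ends. They are called paired-end regions here. The rule used position alone, but a wide region reaches more gene ends than a narrow one, and a merged region grows with the number of libraries that contribute to it.

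The 7 isogenic lines had 3 libraries each. WT was unedited H9, which is heterozygous (G/A) at the INPP5D polymorphism. The edited lines were, per the labels, TREM2-R47H and TREM2-KO (TREM2 is a lipid receptor of microglia), SORL1-A528T and SORL1-KO (SORL1 sorts cargo such as APP between endosomes and Golgi, and the protocol lists an R744X line beside A528T), CD33 SNP (CD33 is an inhibitory sialic acid receptor) and INPP5D SNP (INPP5D is a lipid phosphatase, here homozygous for A). All edits were homozygous and made with CRISPR/Cas9 in clones, and no label states the number of clones per line. The SORL1-A528T libraries carry that name in their titles, while their genotype field reads TREM2-KO. All cells were first made into haematopoietic progenitors and then differentiated to microglia over 28 days with IL-34, TGF and M-CSF, with CD200 and CX3CL1 added at the end. Nothing in the labels says that the 3 libraries of a line came from separate cultures, so the spread between them may be technical.

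Divergent neighbouring genes transcribe away from each other and often share 1 stretch of open, GC-rich promoter DNA, called a bidirectional promoter. Such promoters are common at housekeeping genes, for example those of DNA repair and mitochondria, and seldom hold a TATA box. At a tandem pair the end of 1 gene lies near the start of the next, and at a convergent pair 2 ends meet, where open chromatin is less usual. ATAC-seq marks open chromatin with a transposase that inserts adapters into accessible DNA.

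The stretches between the 2 starts are shown for 5 divergent pairs that hold a gene of the Alzheimer disease and microglia list, because they are the shared promoters of the genes most tied to this cell model. Sequences come from RefSeq promoters of GRCh38.p14, on the plus strand, 5′ to 3′. Capitals mark CCGGAAG (ETS factors), GCATGCGC (NRF1), ACTACAA (ZNF143), CCAAT (NF-Y), GGGCGG (SP and KLF factors), GAGGAAG (PU.1), TGACGTCA (CREB) or TATAAA (the TATA box), on either strand.
COPA and NCSTN, chr1:160343251-160343382: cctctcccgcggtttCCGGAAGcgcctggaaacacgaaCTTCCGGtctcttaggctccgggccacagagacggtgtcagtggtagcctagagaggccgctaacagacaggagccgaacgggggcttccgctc
KNOP1 and IQCK, chr16:19718228-19718270: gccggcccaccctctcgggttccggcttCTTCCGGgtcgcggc
ZCWPW1 and MEPCE, chr7:100428704-100428789: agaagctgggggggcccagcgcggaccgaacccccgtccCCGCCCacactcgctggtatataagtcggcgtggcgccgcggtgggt
CELF1 and PTPMT1, chr11:47565540-47565598: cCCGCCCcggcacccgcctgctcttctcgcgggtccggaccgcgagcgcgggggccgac
U2AF1L4 and PSENEN, chr19:35745419-35745650: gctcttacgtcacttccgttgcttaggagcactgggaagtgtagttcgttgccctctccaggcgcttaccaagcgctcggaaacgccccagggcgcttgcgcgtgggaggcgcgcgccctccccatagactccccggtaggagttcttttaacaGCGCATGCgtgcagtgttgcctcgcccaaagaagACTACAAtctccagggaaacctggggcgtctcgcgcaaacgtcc

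None of these 5 stretches holds the exact run TATAAA, and each holds at least 1 of the other motifs. Variants of TATAAA were not searched, and the ZCWPW1 and MEPCE stretch holds the close run TATATAAG, left unmarked. COPA encodes a coat protein of Golgi vesicles and NCSTN encodes nicastrin, a γ-secretase subunit. PSENEN encodes another γ-secretase subunit, and its neighbour U2AF1L4 encodes a splicing factor. MEPCE caps the small nuclear RNA 7SK, CELF1 binds RNA, and PTPMT1 is a mitochondrial phosphatase.

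The stretches upstream of 4 genes are shown because their regions differed most cleanly between lines. They are printed on the strand of the named gene and end at its start, and those of CRYZ and IRAK4 reach to the neighbouring gene span.
CRYZ, minus strand, chr1:74733051-74733151: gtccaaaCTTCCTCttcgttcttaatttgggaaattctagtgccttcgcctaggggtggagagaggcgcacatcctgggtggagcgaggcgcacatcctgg
IRAK4, plus strand, chr12:43758791-43758950: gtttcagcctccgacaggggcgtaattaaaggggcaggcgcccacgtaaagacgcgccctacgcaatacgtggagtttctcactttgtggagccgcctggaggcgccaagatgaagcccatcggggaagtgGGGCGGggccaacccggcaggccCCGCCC
H2BC3, minus strand, chr6:26043714-26043963: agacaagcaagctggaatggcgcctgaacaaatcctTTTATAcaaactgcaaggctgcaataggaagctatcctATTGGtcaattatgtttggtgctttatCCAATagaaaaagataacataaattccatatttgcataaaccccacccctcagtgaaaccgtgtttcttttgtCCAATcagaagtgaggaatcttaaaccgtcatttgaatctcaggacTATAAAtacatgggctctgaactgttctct
H3C3, plus strand, chr6:26045134-26045383: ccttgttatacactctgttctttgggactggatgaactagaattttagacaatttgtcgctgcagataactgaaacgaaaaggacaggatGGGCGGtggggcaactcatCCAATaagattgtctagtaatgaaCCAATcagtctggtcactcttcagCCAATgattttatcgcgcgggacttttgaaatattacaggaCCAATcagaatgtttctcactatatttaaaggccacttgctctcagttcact

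CRYZ encodes a quinone oxidoreductase and its neighbour TYW3 a tRNA modification enzyme. IRAK4 encodes the kinase that carries Toll-like and interleukin-1 receptor signals, and its neighbour PUS7L a pseudouridine synthase-like protein. H2BC3 and H3C3 encode replication-dependent histones H2B and H3. The H2BC3 stretch holds TATAAA and CCAAT, and the H3C3 stretch holds CCAAT and GGGCGG.

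Depth differed with the replicate number in every line, per the file headers. The 7 libraries of replicate 1 held 56.5 to 67.4 M tags, replicate 2 held 12.8 to 17.5 M and replicate 3 held 32.6 to 52.9 M. SORL1-A528T replicate 2 stood apart, with 39736 peaks and an estimated fragment length of 494 bp, against 74 bp in all replicates 1 and 3. The microglial identity was checked on gene ends. Of 12 microglia and macrophage markers, 10 had an end at a region called in all 21 libraries, among them CSF1R, SPI1 and P2RY12. The others, AIF1 and TREM2, had an end only at regions called in fewer libraries. The counts were 0 of 6 autosomal pluripotency markers, 0 of 6 erythroid and megakaryocyte markers, 1 of 5 mast cell markers (KIT) and 1 of 6 neural markers (MAP2). With a call in any library they were 12 of 12, 1 of 6, 2 of 6, 1 of 5 and 5 of 6, in the same order. In bulk libraries, fewer cells with an open region and less opening in each cell cannot be told apart.

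Paired-end regions were called in most libraries. Of the 2608 regions, 1482 (56.8%, exact 95% binomial interval 54.9 to 58.7, which covers counting error only) were called in all 21 libraries, 112 (4.29%) in 1 library, and the median was 21 libraries. Among 13035 regions at ends of 1 gene, 44.6% were called in all 21, with a median of 20 libraries. Among 144523 regions at no gene end the share was 11.9% and the median 6, and over all autosomal regions it was 15.3% and 7. The median merged width was 1957 bp (quartiles 1440 and 2662 bp, range 501 to 18207 bp), against 1586 bp at 1 gene and 711 bp at no gene end. Regions are not replicates of a condition, so these values are descriptions.

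The share called in all 21 libraries followed width in every class. Among regions of 1000 to 1999 bp it was 50.2% of paired-end regions and 48.6% of regions at 1 gene. Among regions of 2000 to 2999 bp it was 76.4% and 72.1%, and among regions of at least 3000 bp it was 81.0% and 85.0%. Below 1000 bp it was 0.831% and 1.76%. Within classes of like width the paired-end and 1-gene regions were close, and their order turned in the narrowest and widest class. Merged width grows with the number of calling libraries, so regions of like width are in part alike in recurrence. The classes therefore cannot separate width from recurrence.

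Recurrence and width differed with the arrangement of the genes. Of the regions, 718 involved a gene with no strand in the promoter table and are left out of these classes. The 1010 head-to-head regions, at 2 starts, were called in all 21 libraries in 75.0% of cases and in 1 library in 0.990%, with a median width of 2131.5 bp. The 491 head-to-tail regions, at a start and an end, reached 46.0%, with a median of 20 libraries and 1783 bp. The 179 tail-to-tail regions, at 2 ends, reached 10.1%, with a median of 7 libraries and 803 bp, and 22.3% of them were called in 1 library. A further 110 regions held both ends of a short gene (60.0% in all 21), and 100 lay at 3 or more genes (69.0%).

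**Figure D1:**
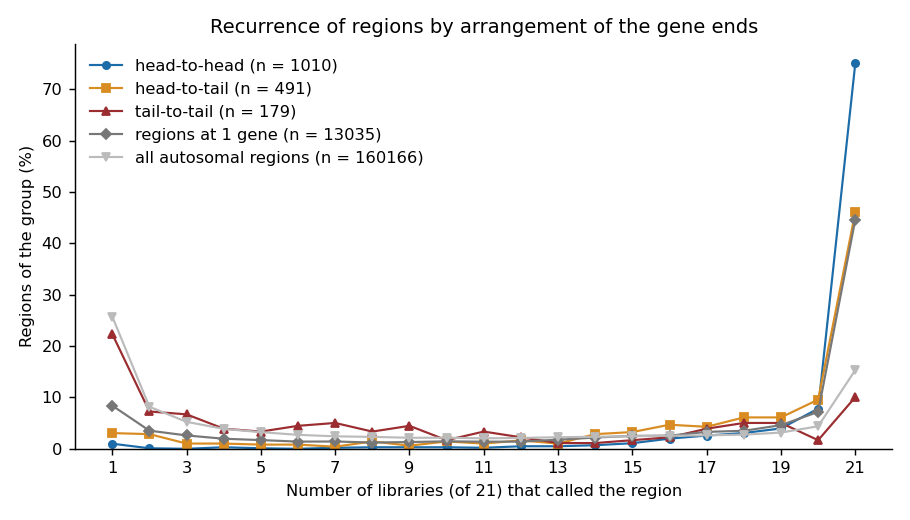
Share of regions (y axis, %) against the number of the 21 libraries that called them (x axis), for head-to-head, head-to-tail and tail-to-tail regions, for regions at 1 gene and for all autosomal regions. The head-to-head line ends at 75.0% in 21 libraries, and the tail-to-tail line has its largest share, 22.3%, at 1 library.

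The same order held for regions at 1 gene: 55.9% of 7864 regions at a single start and 13.9% of 2317 at a single end were called in all 21. At like width, head-to-head regions were above single starts, with 63.2% against 54.0% at 1000 to 1999 bp, 85.1% against 74.7% at 2000 to 2999 bp, and 90.1% against 87.3% at 3000 bp or more. Below 1000 bp only 25 head-to-head regions were found, of which none was called in all 21 libraries, against 1.49% of single starts. No test was made of these differences.

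Among head-to-head regions, 688 were divergent with a gap between the starts, 265 had overlapping starts and 57 had both starts on the same strand. Their shares in all 21 libraries were 75.9%, 73.2% and 73.7%. The gap of divergent pairs had a median of 182 bp (quartiles 106 and 312 bp, range 1 to 2949 bp). The share in all 21 libraries was 65.4% for 159 pairs with a gap of 1 to 100 bp, 77.5% for 347 pairs at 101 to 300 bp, 86.7% for 113 pairs at 301 to 600 bp, 80.0% for 30 pairs at 601 to 1000 bp and 69.2% for 39 wider pairs. Exact 95% intervals were 57.5 to 72.8% in the narrowest class, 79.1 to 92.4% in the third and 61.4 to 92.3% for the 30 pairs. The differences between the classes were not tested.

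A single peak usually covered both starts of a divergent pair. Over 13863 calls of these 688 regions, 1 peak spanned both starts in 92.7%, a separate peak lay over each start in 0.887%, 1 start was covered in 4.88% and neither in 1.55%. In 532 of the 688 pairs 1 peak spanned both starts in every library that called the region. Per library the share ran from 88.1 to 94.9%. Per the file headers the peak size was 500 bp, above the upper quartile of the gap (312 bp), so 1 peak can readily span most pairs. The minimum distance between peaks was 1000 bp, which limits separate peaks at short gaps. The share fell with the gap, from 98.5% at 1 to 100 bp to 97.5%, 93.8% and 69.4%, and to 37.8% above 1000 bp, where 16.3% of calls had a peak over each start.

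**Figure D2:**
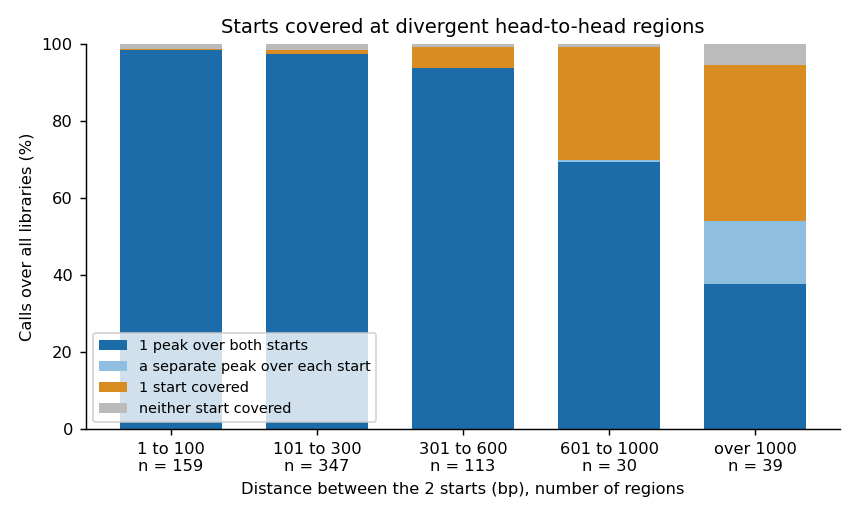
Stacked bars of the calls of divergent head-to-head regions over all libraries (y axis, %) by the distance between the starts (x axis, bp), split into 1 peak over both starts, a separate peak over each, 1 start covered and neither. The share of 1 peak over both falls from 98.5% in the narrowest class to 37.8% in the widest.

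The cover of peaks around the pairs differed with the arrangement of the gene ends. At the midpoint between the starts of divergent pairs, a peak covered 91.3% of region and library pairs, and 600 bp to either side it covered 58.8% and 59.4%. Head-to-tail regions were read in the direction of the gene whose start lies there. On which side of the midpoint that start lies was not checked. At these regions cover was 48.0% at the midpoint and 64.7% at 400 bp beyond it. At tail-to-tail regions it was 13.6% at the midpoint and 10.3% and 14.6% at 600 bp to either side. The peak lists give no signal height, so cover is the only shape they show.

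**Figure D3:**
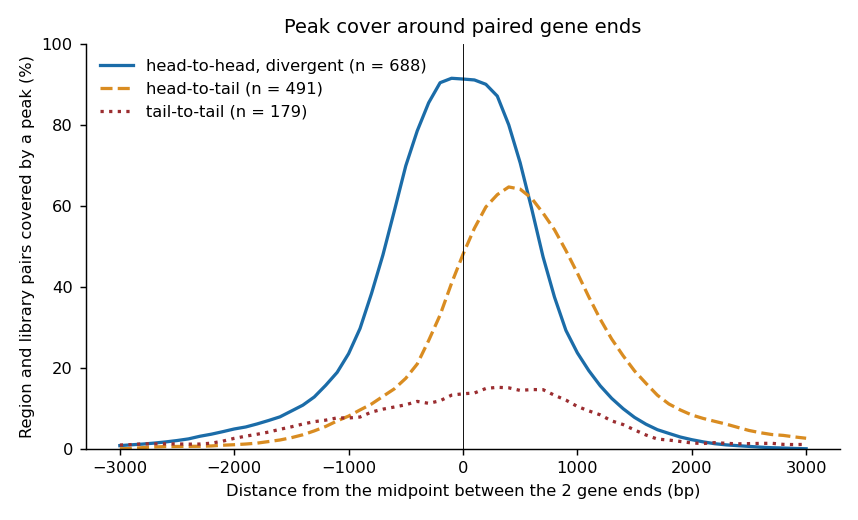
Share of region and library pairs covered by a peak (y axis, %) against distance from the midpoint between the 2 gene ends (x axis, bp), read along the plus strand for divergent and tail-to-tail regions and along the gene whose start is there for head-to-tail regions. Divergent regions peak at the midpoint at about 91.3%, head-to-tail regions beyond it, and tail-to-tail regions stay low throughout.

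Recurrence showed no step at the 1000 bp limit, while the median width was lower just inside it. The 74 regions whose second gene end lay 900 to 1000 bp away were called in a median of 16 libraries, with 28.4% in all 21 and a median width of 1106.5 bp. The 76 regions just outside, with the second end beyond 1000 and up to 1100 bp away, had a median of 16 libraries, 27.6% in all 21 and 1403 bp. By contrast, the 1840 regions that held ends of both genes inside them reached 68.4%.

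In all, 4832 of 19126 autosomal protein-coding genes (25.3%) had an end at a paired-end region. Most regions held 2 genes (2453), 147 held 3, 7 held 4 and 1 held 23, where the protocadherin γ genes share their last exons (chr5:141512043-141518229, beside DIAPH1). Read-through gene models took part in 100 regions. By chromosome the number per 100 genes ran from 7.04 on chromosome 18 to 18.8 on chromosome 17, and on chromosome 19 the paired-end regions made up 7.42% of all regions.

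Gene groups differed in how often they lay at such regions. Of 87 DNA repair and replication genes, 48 (55.2%) did, of 34 complex I subunits 20 (58.8%), and of 77 mitochondrial ribosomal proteins 42 (54.5%), against 25.3% of all genes. Cytosolic ribosomal proteins reached 30 of 80 (37.5%) and proteasome subunits 13 of 38 (34.2%). Only 14608 of all genes had an end at any region, against 36 of the 38 proteasome genes and every gene of the other groups named so far. Among genes with such an end, 4832 of 14608 lay at paired-end regions, so the excess of these groups was smaller there. Zinc finger genes were below all genes, with 92 of 497 (18.5%), or 92 of 423 with an end at any region. Replication-dependent histone genes, which are short and clustered, reached 49 of 73 (67.1%) at 24 regions, with a median width of 3757 bp. The share of a group's regions called in all 21 libraries was 75.0% for DNA repair, 76.2% for complex I, 78.6% for the proteasome, 83.3% for histones and 69.2% for zinc finger genes. It was 54.3% for mitochondrial and 55.6% for cytosolic ribosomal proteins, near the 56.8% of all paired-end regions.

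A region was found at 15 of 20 neighbouring pairs listed from textbook knowledge. No region lay at both genes of COL4A1 and COL4A2, COL4A3 and COL4A4, PPAT and PAICS, UBE2L3 and YDJC, or H2AC4 and H2BC3. Among those called in all 21 libraries were HSPD1 and HSPE1, the mitochondrial chaperonins (chr2:197498502-197501372), TAP1 and PSMB9, of antigen processing (chr6:32852717-32854975), HADHA and HADHB, the subunits of the trifunctional protein of fatty acid oxidation (chr2:26242807-26246093), and SARS2 and MRPS12, of mitochondrial translation (chr19:38929914-38931560). Their summed peak widths had medians over the 21 libraries of 2470, 1383, 1333 and 1184 bp. SURF1 and SURF2 (chr9:133355714-133356922) had the fewest calls among the listed pairs with a region, with 10 of 21 libraries and widths of 501 to 1094 bp where called. Replicate 1 called that region in all 7 lines, replicate 2 in 1 and replicate 3 in 2. The region of SPATA25, NEURL2 and CTSA was called in 20.

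Genes of the Alzheimer disease and microglia list lay at paired-end regions about as often as all genes, 16 of 69 (23.2%), at 20 regions of which 10 were called in all 21 libraries. Among genes with an end at any region the list was lower, with 16 of 68 against 4832 of 14608. U2AF1L4 and PSENEN (chr19:35744365-35746250) had 1 peak over both starts in 21 of 21 libraries, with widths of 1108 to 1823 bp and a median of 1475 bp. ZCWPW1 and MEPCE (chr7:100427899-100431154) had the same, at 1619 to 3141 bp. KNOP1 and IQCK (chr16:19717341-19719109) did so at 640 to 1610 bp. COPA and NCSTN (chr1:160342684-160344013) were called in 20 libraries, all but 1 SORL1-A528T library, at 501 to 1330 bp. CELF1 and PTPMT1 (chr11:47565047-47566704) were called in 17, at 626 to 1627 bp. The shortest gaps of these 5 pairs, of KNOP1 and CELF1, thus went with different recurrence.

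TYROBP, the adaptor through which TREM2 signals, shared a region with HCST, the adaptor of NKG2D, and NFKBID, an inhibitor of NF-κB (chr19:35898350-35905776). It was called in all 21 libraries at 755 to 6566 bp. Its mean width was 3032 ± 1723 bp in WT (SD, n = 3), 4524 ± 2232 bp in TREM2-R47H and 2781 ± 1755 bp in TREM2-KO, and the lines overlapped. The limma F test over the 7 lines gave an adjusted p of 1.00. CSF1R, the receptor for M-CSF and IL-34, had a convergent partner, HMGXB3 (chr5:150048010-150054629). This tail-to-tail region was called in all 21 libraries at 1414 to 6620 bp, as were 10.1% of tail-to-tail regions. The start of CSF1R with the end of PDGFRB (chr5:150112492-150113854) was called in 19.

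Other regions of this list ran from constant to rare. TRIM35 and PTK2B, a tyrosine kinase (chr8:27310138-27312378), SHARPIN and MAF1 (chr8:144102744-144105415), GNGT2 and ABI3 (chr17:49209400-49211363) and PSENEN and LIN37 (chr19:35748000-35749215) were called in all 21. CNN2 and ABCA7, a lipid transporter (chr19:1037475-1041981), were called in 20, and IFITM10 and CTSD, the protease cathepsin D (chr11:1747299-1753624), in 19. The far end of ABCA7, beside ARHGAP45, was called in 9, and that of ABI3, beside PHOSPHO1, in 7. The regions of INO80E and DOC2A, GRN and FAM171A2, and ZYX and EPHA1 were called in 3, 2 and 1 libraries.

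The widest paired-end region lay at TCOF1, a ribosome biogenesis factor, and CD74, the invariant chain of MHC class II (chr5:150395718-150413924, 18207 bp). Its summed width ran from 5408 bp in SORL1-A528T replicate 2 to 18090 bp in SORL1-A528T replicate 3, with a median of 11447 bp, in 1 to 5 peaks per library. The lowest and highest value thus came from the same line. DUSP6, a MAP kinase phosphatase (chr12:89344571-89355701), and STX10 with IER2 (chr19:13147051-13157322) followed, at 11131 and 10272 bp.

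Promoter sequences of divergent pairs were compared with those of genes alone at their start, in windows of 300 bases of which 50 lie after the start, on both strands. Sequences were had for 94.4% of 1372 genes at divergent pairs and 94.2% of 7699 genes at single starts. CCGGAAG was in 30.2% of divergent windows, 16.1% of single-start windows and 14.9% of all windows. GCATGCGC was in 8.65%, 4.92% and 4.33%, and ACTACAA in 6.95%, 3.13% and 3.22%. AAGATGG (YY1) was in 10.7%, 6.84% and 6.50%, CCAAT in 43.6%, 35.6% and 36.4%, and GGGCGG in 74.0%, 69.0% and 59.4%. TATAAA went the other way, with 2.55%, 6.29% and 9.84%. Other paired starts did not follow the divergent ones throughout. Windows of overlapping starts held CCGGAAG in 19.8%, CCAAT in 28.9%, GCATGCGC in 3.45% and GGGCGG in 67.7%, the last 3 below single starts. Starts at head-to-tail regions held CCGGAAG in 22.1%, GGGCGG in 76.2% and TATAAA in 6.99%.

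The other motifs, among them those of the myeloid factor PU.1 and of AP-1, differed by fewer percentage points. GAGGAAG was in 14.4%, 14.8% and 14.1%, CACGTG (the E-box) in 10.9%, 9.37% and 8.84%, TGACGTCA in 3.63%, 3.24% and 2.73%, and TGANTCA (AP-1) in 3.09%, 4.37% and 5.62%. The median GC content was 65.0%, 65.3% and 63.0%, and the median observed over expected CpG ratio was 0.883, 0.828 and 0.775. Both windows of a close divergent pair overlap, so a motif between the starts is counted for both genes. In 403 stretches of 30 to 250 bases between 2 starts, counted once each, CCGGAAG was in 24.6%, CCAAT in 32.0%, GGGCGG in 57.8% and TATAAA in 0.993%. CCGGAAG was as common in divergent windows of regions called in all 21 libraries (30.4%) as in those of the others (29.4%), whereas CCAAT was in 47.8% and 29.7%. At single starts CCAAT was likewise in 40.5% and 28.8%, and CCGGAAG in 19.98% and 10.6%. A match is a run of letters, not a bound site.

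In each library, 61.9 to 93.5% of the paired-end regions were called, with a median of 88.7%. The lowest was SORL1-A528T replicate 2 and the highest TREM2-R47H replicate 1. By line the mean share was 83.3 ± 12.1% in WT (SD, n = 3), 88.0 ± 7.10% in TREM2-R47H, 83.6 ± 8.30% in TREM2-KO, 80.2 ± 15.9% in SORL1-A528T, 87.4 ± 4.66% in SORL1-KO, 85.0 ± 9.27% in CD33 SNP and 83.7 ± 9.06% in INPP5D SNP. The libraries of all lines overlapped. Over all autosomal regions the mean share was 46.3% in WT, 45.8% in TREM2-R47H, 46.6% in TREM2-KO, 36.4% in SORL1-A528T, 43.8% in SORL1-KO, 49.1% in CD33 SNP and 43.0% in INPP5D SNP, so the order of the lines was another one.

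Replicate number, and with it depth and estimated fragment length, moved with the share called, and the part of each was not tested. By replicate number it was 91.1 ± 1.69% (SD, n = 7), 73.7 ± 6.72% and 88.6 ± 1.49%. For head-to-head regions these were 98.4, 88.8 and 97.3%, and for tail-to-tail regions 53.9, 22.9 and 50.0%. In the 14 libraries of replicates 1 and 3, 2120 paired-end regions (81.3%) were called in all 14, and 638 of these were missing from at least 1 of the 7 libraries of replicate 2. Over all autosomal regions, 44718 (27.9%) were called in all 14, of which 20163 were missing from at least 1 library of replicate 2. Without SORL1-A528T replicate 2, the share called in all remaining libraries was 62.3%. The median summed width of the 1482 constant regions ran from 1124.5 to 2007.5 bp per library and was 1.23 to 1.68 times that of all constant autosomal regions, with the lowest ratio in SORL1-A528T replicate 2.

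**Figure D4:**
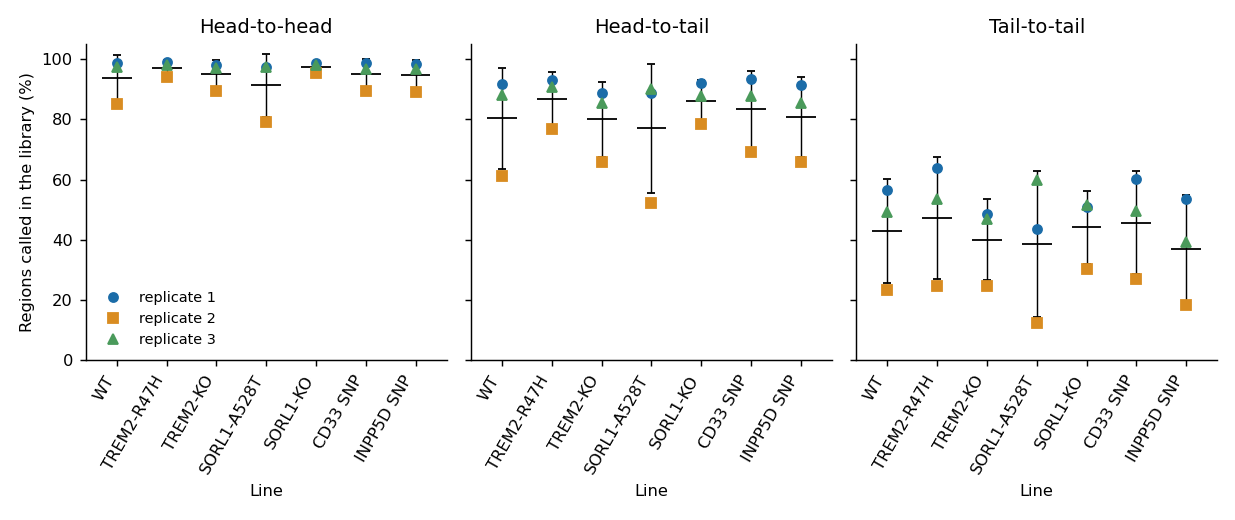
Share of head-to-head, head-to-tail and tail-to-tail regions called in each library (y axis, %) by line (x axis), with bars for the mean and SD of the 3 libraries and a symbol for each replicate number. The squares of replicate 2 lie lowest in each line, down to 12.3% of tail-to-tail regions in SORL1-A528T.

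The comparison of the edited lines with WT that the design implies was made for peak width first. The log2 summed width in regions called in all 21 libraries, less the library's median, was fitted by limma over 24555 autosomal regions. None of the 1482 paired-end regions passed the F test over the 7 lines (background 0.00407% of all regions), and 16 (1.08%) had an unadjusted p below 0.05, against 4% of all regions. None was wider or narrower than WT in any of the 6 contrasts at an adjusted p below 0.05 (background 0% wider in each line, and narrower 0.00814% in TREM2-R47H and 0% in the others). The median log2 difference of paired-end regions was 0.04 in TREM2-R47H, 0.02 in TREM2-KO, 0.01 in SORL1-A528T, 0.05 in SORL1-KO, -0.02 in CD33 SNP and 0.02 in INPP5D SNP. Over all regions fitted these medians were -0.0310, 0.00492, -0.0176, -0.00179, -0.0241 and 0.00476, in the same order. Of the 1482 paired-end regions, 883 were wider and 599 narrower in TREM2-R47H, 823 and 659 in TREM2-KO, 768 and 714 in SORL1-A528T, 962 and 520 in SORL1-KO, 660 and 822 in CD33 SNP, and 815 and 667 in INPP5D SNP. These medians and counts are descriptions without a test, and the counts were not made over all regions fitted. The median standard error of a single region's difference was 0.195. The smallest adjusted p among the paired-end regions was 0.552, in TREM2-R47H. A miss of the threshold does not show that widths are equal.

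The 3 paired-end regions with the smallest F-test p are named, though none passed. At ANKRD45 and KLHL20 (chr1:173714395-173716177, unadjusted p = 0.00678, limma adjusted p = 0.860) the mean width was 1395 ± 223 bp in WT, 1496 ± 58.6 bp in TREM2-KO and 1028 ± 125 bp in SORL1-KO (SD, n = 3, limma). At TOMM70, an import receptor of mitochondria, and LNP1 (chr3:100399765-100403851, adjusted p = 0.957 by limma) it was 2987 ± 896 bp in WT, 1888 ± 406 bp in SORL1-A528T and 3324 ± 517 bp in CD33 SNP. At SNRNP40, a spliceosome subunit, and ZCCHC17 (chr1:31296190-31298031, adjusted p = 0.957 by limma) it was 987 ± 199 bp in WT, 1428 ± 419 bp in SORL1-KO and 759 ± 227 bp in INPP5D SNP. Of these 6 comparisons with WT, the libraries overlapped in all but SORL1-A528T at TOMM70.

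Calls were compared next, by an exact permutation test per region of whether its calls fell unevenly over the 7 lines. Of 625 paired-end regions called in 3 to 18 libraries, none passed after Benjamini-Hochberg adjustment over 69201 regions (background 0%). At an unadjusted p below 0.05 there were 5 (0.8%), against 1.02% of all regions. The smallest were at H2BC3 and H3C3 (exact p = 0.000119, the smallest that 9 calls can give), at CRYZ and TYW3 and at PUS7L and IRAK4 (exact p = 0.00526 each), at INKA1 and UBA7 (exact p = 0.00619) and at CCDC169-SOHLH2 and CCDC169 (exact p = 0.0211). Each had an adjusted p of 1. The smallest exact p depends on the number of calls. Even that of 9 calls cannot pass adjustment over 69201 regions unless many regions share it. A region with fully all-or-none calls thus fails by itself, and the lack of passing regions does not show that calls were even.

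Regions called in 3 of 3 libraries of 1 line and 0 of 3 of another were few. Such a pattern of 3 against 3 cannot give an exact p below 0.1 by itself and is a description. Against WT, TREM2-R47H gained 1 paired-end region (background 0.124% of all regions) and lost 2 (0.298%). TREM2-KO gained 1 (0.0462%) and lost 2 (0.0568%). SORL1-A528T gained 0 (0.0119%) and lost 1 (0.477%). SORL1-KO gained 2 (0.0637%) and lost 3 (0.227%). CD33 SNP gained 1 (0.0912%) and lost 1 (0.0412%), and INPP5D SNP gained 0 (0.0268%) and lost 2 (0.14%). Of the 2608 regions, 1 is 0.0383%, 2 are 0.0767% and 3 are 0.115%. The shares of lost regions lay below the background in TREM2-R47H, SORL1-A528T, SORL1-KO and INPP5D SNP. In CD33 SNP and TREM2-KO they differed from it by less than the share of 1 region. With 1 to 3 lost regions per line, no difference between lines is read from these shares. The region of H2BC3 and H3C3 was among the losses of TREM2-R47H, TREM2-KO, SORL1-A528T and CD33 SNP. A region called in all 21 libraries cannot be all-or-none, and this holds for more paired-end regions than for others. The 6 comparisons share the WT libraries.

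Of the paired-end regions, 2 (0.0767%) were called in all 18 libraries of 6 lines and in none of the seventh, against 0.0306% of all regions. None was called in 1 line only (background 0.0156%). The first was CRYZ and TYW3 (chr1:74732331-74734386). Its peak was 1735, 1297 and 1706 bp wide in WT replicates 1 to 3, 1845, 1687 and 1989 bp in TREM2-R47H, 1872, 1776 and 1624 bp in SORL1-A528T, 1655, 1716 and 1724 bp in SORL1-KO, 1870, 1946 and 1824 bp in CD33 SNP, and 1714, 1464 and 1725 bp in INPP5D SNP. No TREM2-KO library had a peak there. The region ranked high where called, at a median percentile of 95.6 in the files' order from strong to weak. The nearest regions on either side lay 16636 and 10097 bp away and were called in 4 and 14 libraries, the first in 1 and the second in 0 TREM2-KO libraries.

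The second was PUS7L and IRAK4 (chr12:43757989-43759848), without a peak in the 3 TREM2-R47H libraries. The widths were 1707, 1019 and 1182 bp in WT, 1177, 1552 and 1850 bp in TREM2-KO, 1480, 1465 and 1433 bp in SORL1-A528T, 1491, 1202 and 1292 bp in SORL1-KO, 1705, 1524 and 1577 bp in CD33 SNP, and 1543, 1300 and 1439 bp in INPP5D SNP. Its median percentile was 89.5. The nearest regions lay 16835 bp to the left, called in 10 libraries with 1 of TREM2-R47H, and 2726 bp to the right, called in 4 with none of TREM2-R47H. Both regions kept this pattern when every list was held to its 38043 strongest peaks and when a call needed peaks over 50% of the region.

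H2BC3 and H3C3 (chr6:26043086-26046050) were called in 9 libraries: all 3 of WT, SORL1-KO and INPP5D SNP, and none of the other 4 lines. The summed widths were 2832, 659 and 1846 bp in WT, 2064, 1848 and 1955 bp in SORL1-KO, and 1971, 1134 and 2232 bp in INPP5D SNP, and replicate 2 was narrowest in each line. The nearest regions, 8559 bp to the left and 7960 bp to the right, were called in all 21 libraries, as was that of the histone pair H2BC4 and H2AC6 (chr6:26122281-26126630). The pattern was the same with lists of equal length. With 50% cover, WT and INPP5D SNP each had 2 of 3 calls. This region made up 1 loss each in TREM2-R47H, TREM2-KO, SORL1-A528T and CD33 SNP.

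**Figure D5:**
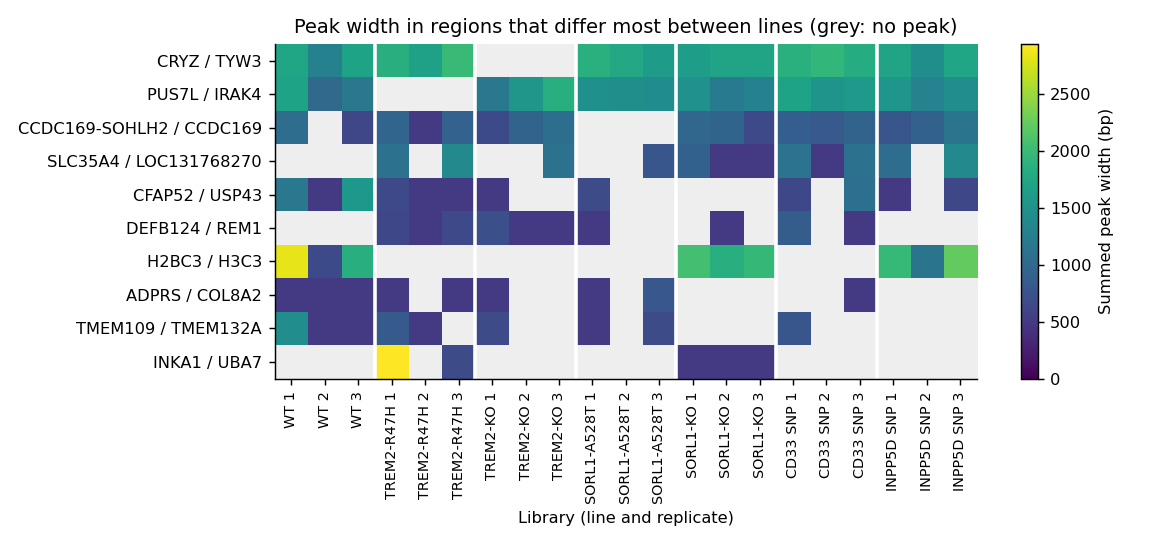
Summed peak width (colour, bp) of 10 paired-end regions (y axis) in the 21 libraries (x axis), with grey for no peak and white lines between lines. The grey blocks show TREM2-KO at CRYZ and TYW3, TREM2-R47H at PUS7L and IRAK4, and 4 lines at H2BC3 and H3C3.

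The remaining differences rested on weaker peaks. CCDC169-SOHLH2 and CCDC169 (chr13:36297436-36298610) were called in 17 libraries, in 0 of 3 SORL1-A528T and 2 of 3 WT libraries, at 501 to 1136 bp. INKA1 and UBA7, a ubiquitin-like modifier activating enzyme (chr3:49805158-49808100), were called in 3 of 3 SORL1-KO libraries at 501 bp, the smallest width among paired-end regions, and in 2 of 3 TREM2-R47H libraries at 2943 and 673 bp. DEFB124 and REM1 (chr20:31473669-31474569) were called in 10 libraries, 3 of 3 in both TREM2 lines and 0 of 3 in WT and INPP5D SNP, at 501 to 864 bp.

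SLC35A4 and LOC131768270 (chr5:140569007-140570463) were called in 3 of 3 SORL1-KO and CD33 SNP libraries, in 0 of 3 WT libraries and in 12 in all. CFAP52 and USP43 (chr17:9644448-9646290), also called in 12, had 3 of 3 WT and 0 of 3 SORL1-KO libraries. ADPRS and COL8A2 (chr1:36093907-36094710) and TMEM109 and TMEM132A (chr11:60923238-60924894) were called in 9 libraries each, with 3 of 3 in WT and 0 of 3 in SORL1-KO and INPP5D SNP. With lists of equal length, none of these 4 regions, nor DEFB124 and REM1 or INKA1 and UBA7, kept 3 of 3 against 0 of 3 libraries with WT.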

How the data were processed

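ATAC-seq was made from 80000 sorted cells per line by the Omni-ATAC protocol and sequenced in pairs, per the labels. The submitters' processing notes name cutadapt 1.18, STAR 2.7 and HOMER 4.10, and no label or header states a genome build. HOMER called peaks in each library alone, per the file headers, with a size of 500 bp, a minimum distance of 1000 bp and a 4-fold local enrichment. The deposited score column is 1 for every peak, so only positions, widths and file order (strong to weak) were used.

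Here 1604926 peaks were read, of which 96.1% were autosomal, and merged where they shared 1 bp. Gene ends came from RefSeq (GRCh38.p14, 19126 autosomal protein-coding genes, 15101 with a strand). Widths were log2-transformed, centred on the library median and fitted by limma 3.58.1 (R 4.3.3) with trend. Calls were tested by exact permutation, one-sided for uneven spread over lines, in Python 3.11.15. Both used Benjamini-Hochberg adjustment over all regions tested and a threshold of 0.05, and were tested on simulated data. Named regions were those past a test or, failing that, the 3 (width) or 5 (calls) with the smallest p, up to 3 gained and 3 lost per line, regions missing from 1 line, the listed pairs and genes, and the 3 widest and 3 with most genes. The groups follow the titles. Some listed items are not reported here. Members, lists and tests were chosen with earlier results of these data known. Alternatives were 500 bp, regions of 2 or more libraries, 50% cover, equal list lengths, other width measures and normalizations, a replicate block and each library left out.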

Additional observations from a re-analysis of the deposited data

How the results depend on the processing

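The share of paired-end regions called in all 21 libraries, 56.8%, was 61.5% within 500 bp of the gene ends, 59.4% among regions of at least 2 libraries, 51.8% with lists of equal length and 18.6% where peaks had to cover 50% of the region. It was 62.3% without SORL1-A528T, a change that came with its replicate 2 alone, and leaving out each library in turn gave 56.8 to 62.3%. The median width stayed within 1891.5 to 1960 bp when a library was left out. All 130 alternatives of the limma width tests and exact call tests kept 0 paired-end regions past the threshold, with a smallest adjusted p of 0.196. They reuse the same libraries and are not separate evidence. Of them, 25 are call tests, which a single region can hardly pass given the smallest exact p. Same-numbered libraries were not taken as pairs in the main tests. The correlation of their deviations from the line means ran from 0.0739 to 0.497 over 63 pairs, 4 of them at or under 0.1. Its mean was 0.279, against -0.136 between libraries of other numbers, and 20 of 21 libraries were closest to their own number. Deviations thus went with the replicate number, which the main tests do not model. With the replicate block, 0 paired-end regions passed for width in the limma F test (background 0.0285% of all regions) or in any limma contrast (background at most 0.0122%). For calls by exact permutation 0 passed as well (background 0%). An unadjusted call p below 0.05 was had by 5 (0.8%), against 1.71% of all regions. The number with an unadjusted width p below 0.05 rose from 16 (1.08%) to 55 (3.71%) by limma, and the share of all regions from 4% to 8.46%. In the block contrasts at this limit, the wider share was above that of all regions in SORL1-KO (4.59% against 2.75%) and TREM2-R47H (4.18% against 2.68%). It was below in every other line, and the narrower share was below in each line.

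Counts of gained and lost regions against WT depended on the settings. The counts in this paragraph cover paired-end regions only. The shares over all autosomal regions were not counted under these settings, so whether a count lies above or below them is not known. With 50% cover, TREM2-R47H gained 2 and lost 1, TREM2-KO lost 1, SORL1-A528T gained 1 and lost 2, SORL1-KO gained 1 and lost 1, CD33 SNP gained 0 and lost 0, and INPP5D SNP lost 1. With equal lists, TREM2-R47H gained 5 and lost 4, SORL1-A528T gained 1 and lost 4, SORL1-KO gained 0 and lost 1, CD33 SNP gained 0, and INPP5D SNP lost 1. Leaving out 1 library gave 1 to 12 gained and 2 to 9 lost in TREM2-R47H, 1 to 5 and 2 to 18 in TREM2-KO, 0 to 6 and 1 to 25 in SORL1-A528T, 2 to 14 and 3 to 12 in SORL1-KO, 1 to 6 and 1 to 4 in CD33 SNP, and 0 to 7 and 2 to 11 in INPP5D SNP. The largest losses came without WT replicate 2, except in CD33 SNP, where they came without its replicate 1. The largest gains came without replicate 2 of the edited line, except in SORL1-KO, where they came without WT replicate 1. Regions missing from 1 line numbered 2 to 3 and regions of 1 line only 0 to 2. Fewer libraries make the all-or-none rule easier to meet. The cause of the other changes was not tested. The libraries of replicate 2, which had the fewest tags and the longest estimated fragments, called 22.9% of tail-to-tail regions on average.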
